A study of Mus musculus with 2 samples.

Results

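The enzymes that hydroxylate and crosslink collagen were followed in fibroblastic reticular cells (FRCs), the fibroblasts that build the collagen-rich reticular fibres of the lymph node. The genes were 10 listed symbols: the lysyl oxidase family (Lox, Loxl1, Loxl2, Loxl3 and Loxl4), the lysyl hydroxylases (Plod1, Plod2 and Plod3) and the catalytic subunits P4ha1 and P4ha2 of collagen prolyl 4-hydroxylase. A gene was taken when a probe set of the array carried its symbol and no other. This gave 9 of the 10 genes, of 19751 named genes in all, with 10 probe sets between them. Loxl2 is annotated together with Gm21451 on its probe set, so it has no value here.

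The series holds 2 arrays of 1 group, named replicate 1 and replicate 2 as in their titles. Both carry total RNA of FRCs that the labels call purified, from lymph nodes of untreated C57BL6/J mice of 4 to 6 weeks. The cells had spent 7 to 10 days in culture, in αMEM medium that held 10% fetal calf serum. The protocol describes whole lymph node stroma as the material put in culture, and the purification of FRCs from it is a step not described in the labels. No second condition, freshly isolated cell or other cell type was available for comparison, and nothing says whether the replicates were separate animals, cultures or RNA preparations. The values therefore describe 1 cultured cell population and the spread between its arrays, which may be technical.

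Collagen chains are modified at prolines and lysines in the endoplasmic reticulum before they fold. Prolyl 4-hydroxylases make the 4-hydroxyproline that holds the triple helix together at body temperature, and lysyl hydroxylases make the hydroxylysine that carries sugars and forms the more stable crosslinks. Both are dioxygenases that need iron, ascorbate, oxygen and 2-oxoglutarate. Outside the cell, the copper enzymes of the lysyl oxidase family oxidise lysine and hydroxylysine side chains to aldehydes, which then join neighbouring collagen or elastin molecules. In lymph nodes, FRCs lay down and ensheath the collagen fibres that act as conduits for lymph-borne molecules.

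Levels are log2 of the deposited intensity, given for each array and then as mean ± SD over n = 2 arrays. A gene was counted as detected when it passed a background limit on both arrays. The limit was the 95th percentile of 1035 olfactory receptor probe sets of the same array, 7.15 on replicate 1 and 7.17 on replicate 2. A stricter limit came from 34 probe sets of genes restricted to other tissues, and was 8.09 and 8.18. Of all named genes, 67.3% passed the first limit and 49.8% the stricter one. All 9 measured enzymes passed both limits on both arrays. Because so many genes of all kinds pass, a pass says that signal was present and does not set these enzymes apart from most other genes. Of 12 FRC marker genes, 10 passed the first limit and 8 the stricter one, with Pdpn at 12.60 and 12.73 on replicates 1 and 2. Ccl19, with 8.17 and 7.85 as the average of 4 probe sets, and Il7, with 8.66 and 7.74, passed the stricter limit on replicate 1 only. Bst1 and Fap lay below both limits.

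Within the lysyl oxidase family all 4 measured genes gave signal well clear of background. Lox, the founding lysyl oxidase of fibrillar collagen and elastin, had 13.37 on replicate 1 and 13.65 on replicate 2 (13.51 ± 0.20). Loxl1, the family member best known for elastic fibre upkeep, had 11.90 and 12.27 (12.08 ± 0.26). Loxl3, which is known for its roles in palate and cartilage development, had 12.27 and 12.58 (12.43 ± 0.22). For each of these 3 genes, replicate 2 was the higher array by less than 0.4 on the log2 scale.

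Loxl4 was the exception in size. Its protein belongs, with those of Loxl2 and Loxl3, to the branch of the family that carries scavenger receptor domains before the catalytic domain. Loxl4 had 9.70 on replicate 1 and 10.53 on replicate 2 (10.12 ± 0.59), which is 1.79-fold higher on replicate 2. It was measured by 2 probe sets, and both showed the difference. The first had 9.62 and 10.50 (1.85-fold) and the second 9.78 and 10.57 (1.73-fold). On either array Loxl4 stood more than 2 log2 units above the olfactory receptor limit, by 2.55 on replicate 1 and 3.36 on replicate 2.

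**Figure D1:**
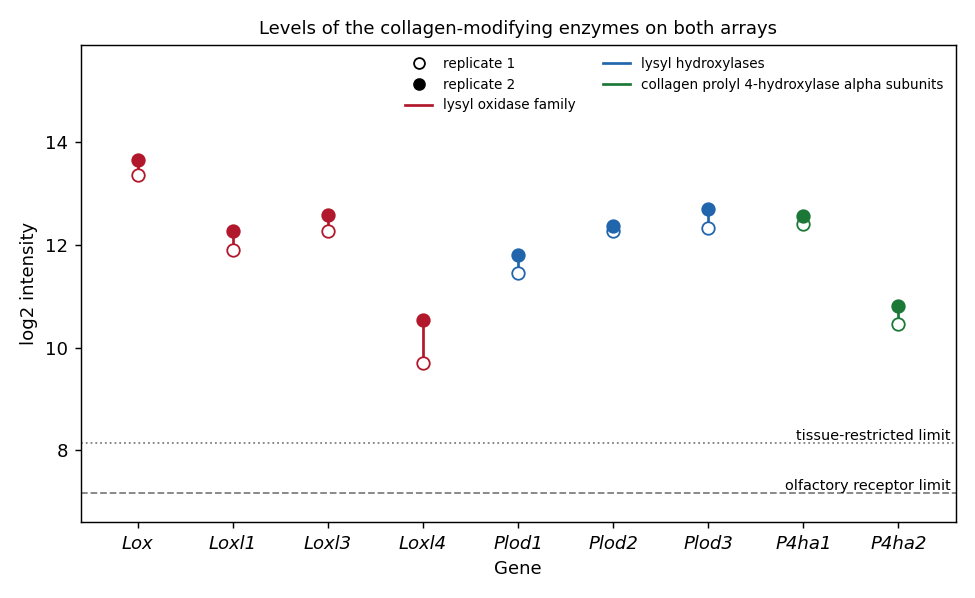
Level of each measured enzyme gene (log2 intensity, vertical axis) on replicate 1 (open circles) and replicate 2 (filled circles), coloured by enzyme family, with both background limits as horizontal lines (means over the arrays, 7.16 and 8.14). All 9 genes lie above both lines on both arrays, the filled circle is the upper one in each, and the widest gap is that of Loxl4.

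The 3 lysyl hydroxylases were all detected, and they differed in how closely the arrays agreed. Plod1, which hydroxylates lysines of the triple helix and whose loss causes a form of Ehlers-Danlos syndrome, had 11.46 on replicate 1 and 11.81 on replicate 2 (11.63 ± 0.25). Plod3, which also adds the sugars to hydroxylysine, had 12.32 and 12.70 (12.51 ± 0.27). Plod2, the hydroxylase of the telopeptides and the enzyme tied to the stable crosslinks of fibrotic tissue, had 12.28 and 12.37 (12.32 ± 0.06). Plod2 thus had the smallest spread of the 9 enzymes, a fold of 1.06 between arrays, against 1.27 for Plod1 and 1.30 for Plod3.

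P4ha1 and P4ha2 encode alternative catalytic subunits, each of which pairs with protein disulfide isomerase (P4hb) to form an active prolyl 4-hydroxylase. P4ha1 had 12.40 on replicate 1 and 12.57 on replicate 2 (12.48 ± 0.12). P4ha2 had 10.46 and 10.80 (10.63 ± 0.25). The fold between arrays was 1.12 for P4ha1 and 1.27 for P4ha2. Levels of different genes are not ranked here, because binding strength varies from probe to probe.

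The promoters of these genes are shown because P4ha1, P4ha2, Plod2 and Lox are all known to respond to hypoxia. The search was chosen with the differences between the arrays known, and any link of promoter letters to those differences was not tested. RefSeq promoter windows of build GRCm38.p6 were matched by symbol, and any window on the chromosome of Lox was skipped. This left windows for 5 of the 10 genes, P4ha1, P4ha2, Plod1, Plod3 and Loxl4, so Lox and Plod2 are not among them. Each window was searched over the 250 bases before the transcript start for ACGTG and GCGTG on both strands, the core letters bound by hypoxia-inducible factors. The capitals below mark these letters, read 5′ to 3′ on the strand of the gene, with the reverse complements CACGT and CACGC. Bases inside an annotated gene are not printed, which shortens the window of P4ha1 and leaves none for Plod3, whose window lies within the neighbouring gene Znhit1. The runs are chr10:59323046-59323196 (plus strand) for P4ha1, chr11:54100674-54100923 (plus strand) for P4ha2, chr4:147936777-147937026 (minus strand) for Plod1 and chr19:42612807-42613056 (minus strand) for Loxl4.
P4ha1: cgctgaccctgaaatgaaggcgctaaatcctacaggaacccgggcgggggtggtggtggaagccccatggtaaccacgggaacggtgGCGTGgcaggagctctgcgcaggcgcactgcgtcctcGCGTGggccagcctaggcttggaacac
P4ha2: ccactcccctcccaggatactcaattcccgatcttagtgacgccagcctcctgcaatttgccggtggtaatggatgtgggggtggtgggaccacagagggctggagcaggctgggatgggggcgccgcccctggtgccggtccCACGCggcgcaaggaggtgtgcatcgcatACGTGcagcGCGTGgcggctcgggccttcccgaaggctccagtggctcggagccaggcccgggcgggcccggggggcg
Plod1: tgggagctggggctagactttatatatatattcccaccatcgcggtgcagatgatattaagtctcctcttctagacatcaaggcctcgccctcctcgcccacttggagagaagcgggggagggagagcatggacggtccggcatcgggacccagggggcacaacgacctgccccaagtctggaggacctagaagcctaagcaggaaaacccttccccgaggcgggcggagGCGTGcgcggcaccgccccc
Loxl4: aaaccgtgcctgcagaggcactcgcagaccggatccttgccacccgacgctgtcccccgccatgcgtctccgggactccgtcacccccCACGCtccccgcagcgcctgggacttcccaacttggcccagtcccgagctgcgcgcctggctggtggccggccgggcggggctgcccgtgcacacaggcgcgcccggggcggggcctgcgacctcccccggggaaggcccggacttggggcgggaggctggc

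The core letters occurred in all 5 windows, and 38.6% of 32851 RefSeq promoter windows of the same length hold them. P4ha2 had 3 matches, among them an ACGTG that begins 78 bases before the start with a GCGTG that begins at 69 bases. P4ha1 had 3, of which 2 lie in the printed run. The other begins 16 bases before the start of the window's transcript, within the annotated span of P4ha1 itself. Plod3 had 4, and Plod1 and Loxl4 had 1 each. The letters hold a CpG, and the 5 windows had a GC content of 55.6% to 76.0% against a median of 52.4% over all windows, so the part of base composition in these matches was not tested. TATAAA, found in 12.4% of all windows, occurred among the 5 windows in Plod1 only, as its reverse complement, 232 to 227 bases before the start. GGGCGG, the GC box, found in 32.7% of all windows, occurred 3 times in Loxl4, 2 times each in P4ha2 and Plod1, and 1 time in P4ha1. A match shows that the letters are there and says nothing of binding in these cells.

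With 1 group, the only contrast is between the replicate arrays, with 1 array a side and no test. Differences are replicate 2 minus replicate 1, over the 13577 genes whose mean level exceeded the mean limit. Of the 9 enzymes, 9 were higher on replicate 2, where 51.2% of all genes were. The median difference of the enzymes was 0.35, beside 0.0046 for all genes. Only Loxl4 differed by at least 1.5-fold, 1 of 9, while 2.87% of all genes were higher and 1.91% lower on replicate 2 by that much. None of the 9 reached 2-fold, and 1.05% of all genes were higher and 0.368% lower by that much. The lean was therefore shared and small, with folds between 1.06 and 1.30 in the 8 enzymes other than Loxl4, whose median was 0.33.

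The place of each enzyme among all genes restates the same differences as a share, so the order is fixed by construction. A difference as high as that of Loxl4 was reached by 1.38% of all genes. For Plod3, Loxl1, Plod1 and P4ha2 the share was between 5.94% and 6.92%. For Loxl3 it was 8.49% and for Lox 9.58%. P4ha1, with 19.3%, and Plod2, with 30.9%, were nearest the middle of all genes. The SD of a typical gene above the limit was 0.078 (median), and Plod2 alone among the enzymes was below it.

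**Figure D2:**
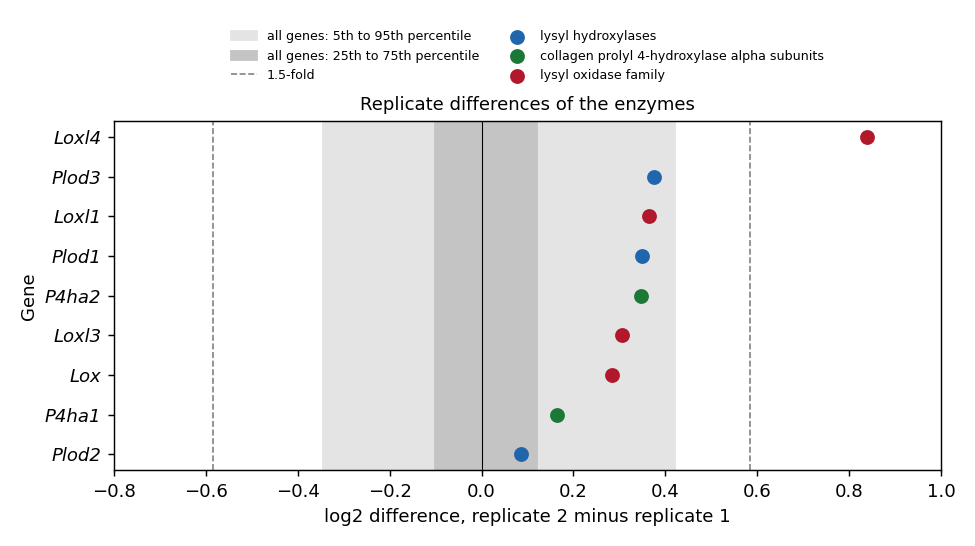
Difference between the arrays for each enzyme gene (log2, replicate 2 minus replicate 1, horizontal axis), 1 point a gene, over the central spread of all 13577 genes, shaded from the 5th to the 95th percentile (-0.34 to 0.42) and from the 25th to the 75th (-0.10 to 0.12). All 9 points lie to the right of 0, and only Loxl4 passes the 1.5-fold line.

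The wider machinery of collagen modification, folding and processing leaned the same way with more exceptions. Of 32 listed genes, 30 were measured, and on both arrays 27 exceeded the first limit and 22 the stricter one. Over the 27 genes above the mean limit, 23 were higher and 4 lower on replicate 2, with a median difference of 0.22. At 1.5-fold, 2 were higher and 1 lower.

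P4ha3, the third catalytic subunit of prolyl 4-hydroxylase, had 11.46 on replicate 1 and 12.21 on replicate 2, a 1.68-fold difference that was larger than those of P4ha1 and P4ha2. Their common partner P4hb had 12.80 and 12.84. The catalytic subunits differed between arrays by 1.12-fold to 1.68-fold, and P4hb by 1.03-fold. With 1 shared subunit and 1 pair of arrays, no pattern of subunit types can be drawn from this.

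All 6 genes of the prolyl 3-hydroxylase group passed the limit, and 5 were higher on replicate 2. They encode the enzymes, and the partners Crtap and cyclophilin B (Ppib), that modify single prolines and assist folding. P3h3 had 10.82 and 11.24, and P3h1 had 10.07 and 10.44. P3h3 is known as a partner of Plod1 in lysine hydroxylation, together with P3h4, which had 10.90 and 11.21. The exception P3h2 had 7.86 and 7.71, below the stricter limit on both arrays.

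The 4 measured chaperones were all higher on replicate 2, with a median difference of 0.46. Fkbp7, an endoplasmic reticulum prolyl isomerase, had 11.01 on replicate 1 and 11.59 on replicate 2. Fkbp14, another of that family and known to act on type III collagen, had 10.38 and 10.93. Serpinh1, the collagen-specific chaperone HSP47, had 12.19 and 12.41. None of these reached 1.5-fold, with Fkbp7 at 1.49-fold. Fkbp10, a partner of Plod2, has no probe set of its own here.

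Of the hydroxylysine galactosyltransferases, Colgalt1 was detected with 11.97 and 12.01, and Colgalt2 was below the limit with 6.37 on both arrays. Among the procollagen proteinases, which trim the propeptides, Bmp1 had 12.41 and 12.65. Bmp1 also activates the Lox proenzyme. Its relative Tll1 ran the other way, with 12.37 on replicate 1 and 11.56 on replicate 2, which is 1.75-fold lower on replicate 2. The N-proteinase gene Adamts14 was also lower on replicate 2, with 10.16 and 9.59, and the 16 probe sets of Adamts3 disagreed. Their average, 6.59 and 6.68, was below the limit, while 6 of the 16 passed it on both arrays and 2 passed the stricter one. The proteinase enhancer Pcolce2 had 10.05 and 10.85 (1.75-fold) and Pcolce 13.24 and 13.46. Measured proteinases that act on the same substrates were thus found on both sides of 0. Adamts2, also listed in this group, has no probe set of its own here.

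All 5 export genes above the mean limit were higher on replicate 2, led by Creb3l1, a transcription factor of collagen secretion, with 11.55 and 12.02. Mia2 was below the limit. Tgm2, a transglutaminase that crosslinks matrix proteins by a route without lysyl oxidase, had 10.59 and 11.10.

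**Figure D3:**
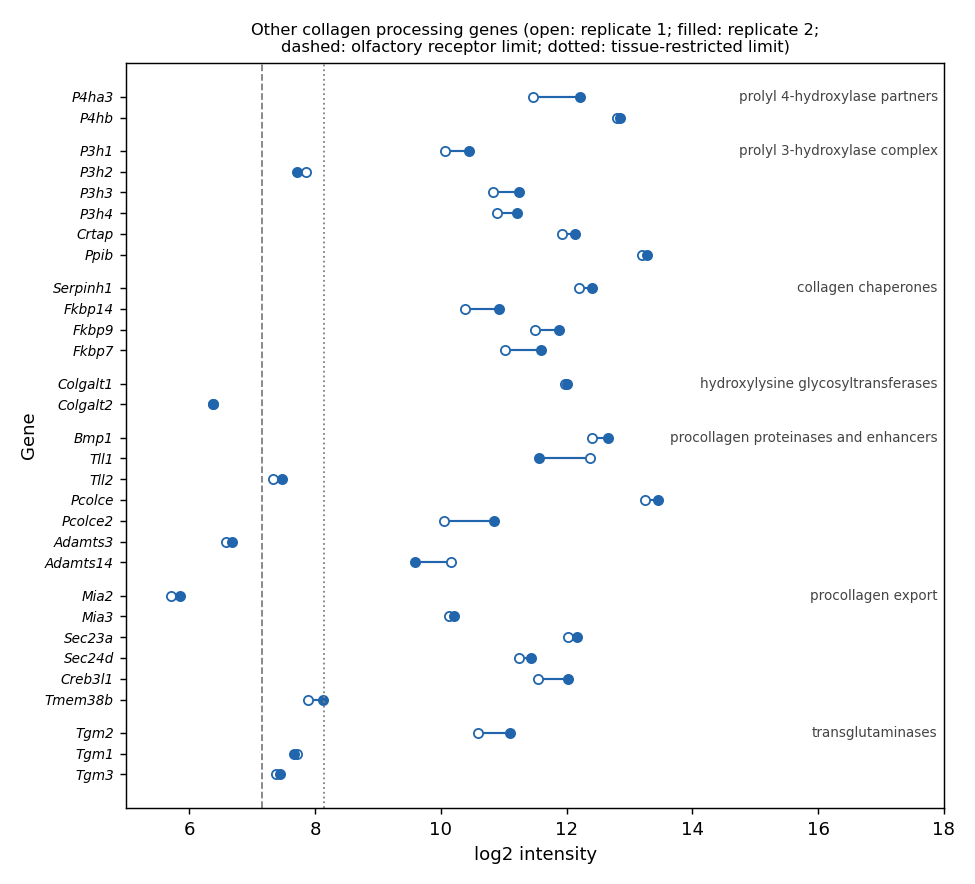
Levels of the 30 measured genes of collagen modification, folding and processing (log2 intensity, horizontal axis), grouped by role, with replicate 1 open, replicate 2 filled and the background limits as vertical lines. Most filled circles lie to the right of the open ones, Tll1 and Adamts14 show the reverse, and Colgalt2, Mia2 and Adamts3, the last plotted as the average of its 16 probe sets, lie left of both lines.

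The substrates of the enzymes were set beside them. All 12 genes, 11 fibrillar collagen chains and elastin, passed the first limit and 10 the stricter one, with Eln at 7.97 and 8.15 and Col24a1 at 7.81 and 7.80 below it. Over the 12 genes, 10 were higher on replicate 2, the median difference was 0.26, and 3 were at least 1.5-fold higher. Col3a1, the main chain of reticular fibres, had 10.05 on replicate 1 and 11.30 on replicate 2 (2.38-fold). Col1a2 had 11.92 and 12.60 (1.61-fold) and Col5a1 had 10.00 and 10.64 (1.56-fold). Each of these chains differed by more than every measured enzyme except Loxl4, whose difference lay between those of Col1a2 and Col3a1. Col11a1, Col11a2, Col24a1 and Col27a1 differed by less than 0.05 in either direction.

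Matrix proteins that bind or position lysyl oxidases were mostly higher on replicate 2. Of the 6 measured, 3 were at least 1.5-fold higher on replicate 2. Fmod, the proteoglycan fibromodulin that binds Lox and directs it along the collagen fibril, had 7.20 and 10.37. Replicate 1 is at the olfactory receptor limit there and below the stricter one, so the measured fold of 8.99 depends on a value close to background. Fbln5, which brings Loxl1 to elastic fibres, had 10.89 and 11.99 (2.14-fold). Postn, periostin, which helps the activation of Lox by Bmp1, had 12.32 and 13.24 (1.90-fold). Fn1, a scaffold for that activation, had 13.79 and 13.86, and Thbs1 had 14.17 and 14.15.

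Genes of cofactor supply leaned less than the enzymes as a whole and differed by cofactor. Of the copper transport genes above the mean limit, 3 were higher and 1 lower on replicate 2, with a median of 0.12. Both ascorbate transport genes were higher (median 0.07) and both iron uptake genes lower (median -0.45). The copper pump Atp7a, which loads lysyl oxidases in the Golgi, had 9.91 on replicate 1 and 9.75 on replicate 2. The copper importer Slc31a1 had 10.73 and 10.92, and its relative Slc31a2 had 11.02 and 11.41. Slc23a2, the ascorbate transporter, had 9.94 and 10.05. Tfrc, the transferrin receptor of iron uptake, had 11.35 and 10.68 (1.60-fold lower on replicate 2), and the iron transporter Slc11a2 had 9.88 and 9.65. Over the 8 genes above the mean limit the median difference was 0.05, with 5 higher and 3 lower. Atp7b was below the limit.

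**Figure D4:**
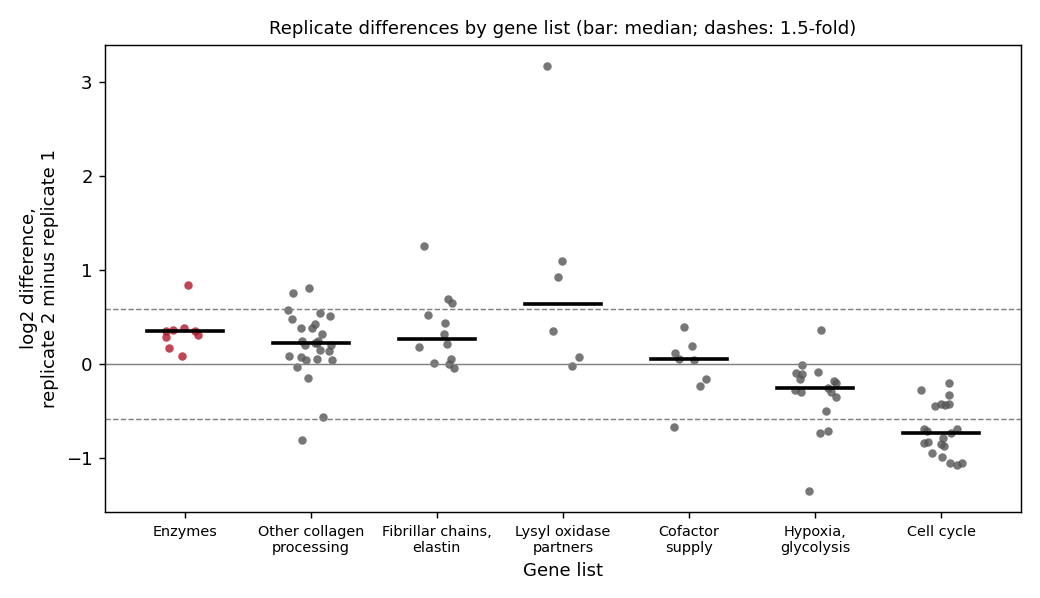
Difference between the arrays (log2, replicate 2 minus replicate 1, vertical axis) for each gene above the mean limit in 7 gene lists, with the median of each list as a black bar and 1.5-fold as dashed lines. The enzymes (red, median 0.35), the other collagen processing genes and the substrate chains lie mostly above 0, and the hypoxia and cell cycle genes lie mostly below it.

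Other gene groups differed between the same arrays, and their part in the lean of the enzymes was not tested. Of 21 cell cycle genes 21 were lower on replicate 2, with a median of -0.74 and 14 of them at least 1.5-fold lower, such as Mki67 with 10.52 and 9.45 and Plk1 with 10.83 and 9.78. Of 17 hypoxia and glycolysis genes above the mean limit, none of them an enzyme counted above, 16 were lower on replicate 2, with a median of -0.26. The oxygen sensor gene Egln3 had 11.19 and 9.84, Pdk1 9.39 and 8.65, and Bnip3 10.99 and 10.28. The exception was Pfkfb4, with 9.55 and 9.92, and Car9, above the limit on 1 array only, had 6.95 and 7.33. The enzymes named above as known to respond to hypoxia lay on the other side of 0, like every other measured enzyme. Their differences were 0.09 for Plod2, 0.16 for P4ha1, 0.28 for Lox and 0.35 for P4ha2. Plod2 and P4ha1 were the enzymes with the smallest differences, while P4ha2 was at the median of the enzymes.

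Few markers of other cells passed the stricter limit. Of 8 blood endothelial markers 6 passed the first limit and 1 the stricter one, and the log2 of their summed intensity was 10.64 on replicate 1 and 10.73 on replicate 2. Lymphatic endothelial genes passed the first limit in 1 of 5 cases and the stricter one in 0 (9.44 and 9.25 summed). Of 9 leukocyte markers 3 passed the first and 1 the stricter limit (10.53 and 10.65 summed), with the pan-leukocyte gene Ptprc below both at 6.41 and 6.47. Of 6 epithelial markers 3 passed the first and 2 the stricter limit (11.41 and 11.40 summed), with Epcam below both and Krt19 at 10.84 and 10.82. Most markers in each sum did not pass the stricter limit, so the sums hold much background and cannot show whether cell content was stable. Single markers differed by more than these sums. The myeloid gene Lyz2 had 7.12 on replicate 1, below the first limit, and 8.43 on replicate 2, above the stricter one. Other myeloid genes did not follow it, with Cd68 at 9.09 and 8.96 and Csf1r at 7.66 and 7.54. Over the 4 leukocyte markers above the mean limit, 2 were higher and 2 lower on replicate 2. The blood endothelial genes Emcn, with 7.64 and 8.40, and Tek, with 6.93 and 7.68, were higher on replicate 2. Of the 8 in that list, however, 3 were higher and 5 lower on replicate 2, such as Cdh5 with 8.05 and 7.53. Flt4, the lymphatic endothelial gene above the limit, was lower there with 8.41 and 7.79, as was the FRC cytokine gene Il7 with 8.66 and 7.74. The part of such cells in the lean of the enzymes was not tested. As a yardstick, 14 of the 34 genes restricted to other tissues passed the first limit themselves. Fewer cells of a type and less RNA per cell cannot be told apart in such bulk samples.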

How the data were processed

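Total RNA of 2 samples of 1 group was measured on arrays, and the deposited table gives 1 intensity per probe set and sample, on a linear scale. Per the submitters' processing notes, the authors made these intensities with RMA, a robust average over the probes of a set; no version is named. RMA evens out whole distributions and compresses low signal, and the labels do not name the arrays processed together. Intensities ran from 8.77 to 20232 and from 8.20 to 20996, with medians of 286.0 and 285.7. Having 2 arrays limits how precise any value can be.

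Log2 values were computed from the deposited intensities with Python 3.11.15. Of 24679 probe sets, 21354 had 1 gene symbol in the platform annotation, 1275 had several and 2050 were unlisted; the last 2 kinds were left out. In the RefSeq table (GRCm38.p6) 21277 of these were found, with 0 symbols changed. Probe sets of a gene were averaged. No test was possible, and 1.5-fold was the call for differences. Counting was tested on simulated data with planted 2-fold changes and the noise of olfactory receptor probe sets. That setting does not show how well 1.5-fold differences of genes far above background are counted.

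The genes and lists were chosen with earlier results of these data known. Named were all enzymes and, of the lists of collagen processing, lysyl oxidase partners, cofactors and substrates, genes below the limit, past 1.5-fold or at either end. Examples from the hypoxia, cell cycle and marker lists, and other genes, were chosen after their values were seen. Alternatives were other limits, probe set choices, quantile normalisation, removal of a lowess trend (span 0.3), other filters and 2-fold.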

Additional observations from a re-analysis of the deposited data

How the results depend on the processing

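The count of 9 detected enzymes was 9 under each of 8 alternatives: the 90th and 99th percentile, the tissue-restricted limit, either array, the highest or lowest probe set, and each array alone (9 to 9). For the other collagen processing genes the count of 27 ranged from 22 to 28, the last with the highest probe set of each gene, which counts Adamts3, and from 27 to 27 with each array alone. With 2-fold in place of 1.5-fold, 0 in place of 1 enzyme and 0 in place of 3 other processing genes differed. Filters and floors cannot move the enzyme differences, since all 9 lie above every limit, and the choice of probe set bears on Loxl4 alone (0.79 or 0.89). Under both rescalings all 18 enzyme differences were above 0. The median was 0.33 with quantile normalisation and 0.34 with the trend removed, and Plod2 ranged from 0.08 to 0.09. RMA had already evened out the whole distributions, so quantile normalisation had little room to move these values. No paired analysis was possible because there is 1 group, and a difference between the arrays cannot be recomputed with an array left out. With 2 arrays and no second condition, technical and biological spread cannot be told apart.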
